A study of Drosophila melanogaster with 3 samples.

Results

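The mitochondrial ribosomal protein genes of Drosophila melanogaster were taken as every protein-coding gene whose symbol begins with mRpL or mRpS, which gave 73 of the 13968 protein-coding genes annotated on the main chromosome arms. Of these, 47 encode proteins of the large subunit (mRpL) and 26 encode proteins of the small subunit (mRpS). The question asked of them was where chromatin carrying the homeodomain protein Dbx was recovered at their promoters. The data were chromatin immunoprecipitation sequencing (ChIP-seq) peak lists from 1 group of 3 biological replicates. Every sample was whole embryos of a transgenic fly strain carrying an insertion that targets Dbx and makes a Dbx-eGFP fusion protein, aged 8 to 24 h by their source label, and the precipitation used an antibody to GFP. A separate age field of the labels holds an hour count that no embryo reaches and was not used. There was no second genotype, treatment or stage, and embryos without the tag were not analysed here, so all comparisons below are between genes within these embryos and none has a p-value. Whole embryos mix all cell types, so a peak cannot be placed in any of them.

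Mitochondrial ribosomes translate the few proteins encoded in the mitochondrial genome, all of which belong to the respiratory chain and the ATP synthase. Their protein subunits are encoded in the nucleus, made in the cytosol and imported, and they are needed in nearly every cell. Many that descend from bacterial ribosomal proteins keep the bacterial number, while others were added in the mitochondrial lineage. The number alone does not settle the descent of a protein. Dbx, by contrast, is a homeodomain transcription factor known from interneurons of the embryonic nerve cord.

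In the conservative list, which holds the authors' 4943 peaks that pass the irreproducible discovery rate (IDR) threshold between replicates, 24 of the 73 genes (32.9%) had a peak summit within 250 bp of an annotated transcription start site (TSS). Such a summit is called a promoter summit below. Over all protein-coding genes the share was 20.6%. At 17 of the 24 genes the same summit also lay within 250 bp of the TSS of a neighbouring gene on the opposite strand. The spaces between the start sites of 4 such pairs are shown here because the summit lies inside them; they are those of highest signal with the summit between the start sites, no annotated exon and at most 300 bases. Each is the dm6 reference sequence (RefSeq) read on the plus strand, from the base after the left TSS to the base before the right TSS, and the capitals mark the 21 bases centred on the summit of the conservative list. The left gene of each pair reads leftwards and the right gene rightwards.
Art3 (left) and mRpS10 (right) (chr3R:15229409-15229664, plus strand): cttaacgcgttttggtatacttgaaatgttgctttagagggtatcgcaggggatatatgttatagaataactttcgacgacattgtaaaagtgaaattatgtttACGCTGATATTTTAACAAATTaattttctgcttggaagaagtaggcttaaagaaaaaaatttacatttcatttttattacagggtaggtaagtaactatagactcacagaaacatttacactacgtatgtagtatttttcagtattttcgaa
mRpS2 (left) and Mon1 (right) (chr2L:4850420-4850640, plus strand): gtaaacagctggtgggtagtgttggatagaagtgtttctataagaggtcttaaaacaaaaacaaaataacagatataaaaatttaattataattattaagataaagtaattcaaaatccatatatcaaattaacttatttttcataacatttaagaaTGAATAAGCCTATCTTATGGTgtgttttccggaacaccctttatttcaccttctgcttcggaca
mRpL24 (left) and betaggt-I (right) (chr2L:4945362-4945578, plus strand): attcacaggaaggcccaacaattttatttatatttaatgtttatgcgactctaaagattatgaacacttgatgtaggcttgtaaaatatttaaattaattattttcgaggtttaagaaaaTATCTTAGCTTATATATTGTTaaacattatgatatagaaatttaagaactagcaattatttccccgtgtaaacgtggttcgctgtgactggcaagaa
mRpL39 (left) and Prosbeta2 (right) (chr3L:14999667-14999950, plus strand): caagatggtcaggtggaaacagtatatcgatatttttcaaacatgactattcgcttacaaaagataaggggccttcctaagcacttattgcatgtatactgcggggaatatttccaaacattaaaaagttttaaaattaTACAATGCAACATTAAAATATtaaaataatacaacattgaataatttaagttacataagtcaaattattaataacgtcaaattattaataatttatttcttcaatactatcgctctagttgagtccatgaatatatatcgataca
These spaces were 256, 221, 217 and 284 bases long. Their A+T shares were 69.9%, 71.9%, 71.4% and 72.9% in the same order. Art3 encodes an arginine methyltransferase, Mon1 a factor of late endosome maturation, betaggt-I the beta subunit of a protein prenylation enzyme and Prosbeta2 a catalytic subunit of the proteasome. The space between mRpS2 and Mon1 held the homeodomain core word TAATTA at 2 places and that between mRpL24 and betaggt-I at 1 place. The other pair of spaces held it at none.

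The summits lay upstream of the genes. Their positions ran from -239 to 61 bp relative to the TSS, with negative values upstream, and the median was 135.5 bp upstream. Of the 24 summits, 23 (95.8%) were upstream, against 77.9% of the summits at all genes with a promoter summit, whose median was 74.0 bp upstream. The exception was mRpL23, the relative of a bacterial protein at the exit tunnel of the ribosome, whose summit lay 61 bp inside the gene. This comparison of positions was not matched for gene arrangement. Another gene's TSS lay near the summit at 70.8% of the 24 members and at 41.2% of all genes with a promoter summit. At the 17 members with a shared summit the median distance to the mRp TSS was 142.0 bp. At the other 7 the summit lay from 29 bp (mRpS29) to 145 bp (mRpL41) upstream. The median position was 138.5 bp upstream in replicate 1 (16 genes), 127.0 bp in replicate 2 (21 genes) and 118.0 bp in replicate 3 (16 genes). Among the 13 genes with a promoter summit in every replicate, the 3 replicate summits of a gene spanned a median of 28.0 bp, from 3 bp at mRpL34 to 248 bp at mRpL18, and 9 of the 13 spanned at most 50 bp.

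**Figure D1:**
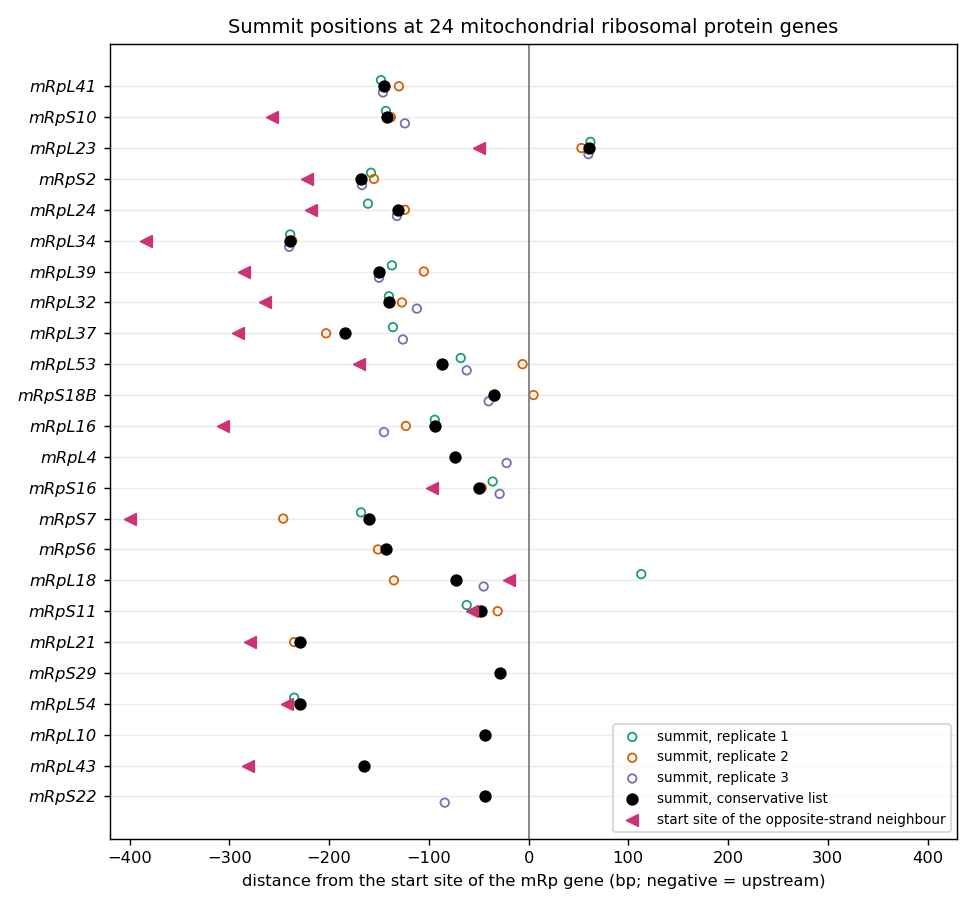
Position of the promoter summit at each of the 24 genes, in bp from the start site of the mRp gene (negative is upstream), with genes ordered by signal in the conservative list. Filled points are the conservative list, open points the 3 replicate lists and triangles the start sites of opposite-strand neighbours within 250 bp of the summit; 23 of the 24 filled points lie left of the start site.

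The signals of the peaks differed widely among the genes. Signal here is the authors' enrichment value for a peak and is used only to rank peaks inside 1 list, from rank 1 for the highest; the lists held 3701, 3353 and 2519 peaks in replicates 1, 2 and 3. The highest was at mRpL41, a large-subunit protein without a bacterial number, with signal 2707 and rank 4 in the conservative list. Its rank was 4 in each of the 3 replicates as well, with signals of 737.9, 973.6 and 1006, and its summit lay 145 bp upstream. No other protein-coding gene had a start site within 250 bp of that summit.

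Next came mRpS10, a protein of the head of the small subunit, with rank 11 and signal 1734, and with ranks 14, 10 and 15 in replicates 1, 2 and 3. Its summit lay 142 bp upstream of its own TSS and 115 bp from that of Art3. For mRpL23 the rank was 33 (signal 1308), with replicate ranks of 53, 22 and 28. The neighbour CG9004 starts 111 bp from that summit. In every list these 3 genes stood far above the other members.

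Ranks 212 and 251 belonged to mRpS2, a small-subunit protein, and mRpL24, the relative of a bacterial protein that starts the assembly of the large subunit. The replicate ranks were 326, 173 and 206 for mRpS2 and 276, 252 and 269 for mRpL24. In the conservative list the signals were 553.4 and 514.8, with summits 54 bp from the TSS of Mon1 and 87 bp from that of betaggt-I. With the 3 genes above, they were the 5 members whose ranked peak reached the largest −log10 IDR of the scale, 5.0, in the conservative and in all 3 replicate ranked lists. They also were the only 5 members within the first 500 ranks of the conservative list, 20.8% of the 24, against 11.9% of all 2543 peaks with a promoter summit. The median signal percentile within the list was 60.8 for the 24 members and 52.7 for all promoter peaks.

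The next 5 genes by signal ranked between 885 and 1390. Their order was mRpL34, mRpL39, mRpL32, mRpL37 and mRpL53. The signal of mRpL34 was 258.3 and its replicate ranks were 1094, 1048 and 688; it shared its summit with Dg, which encodes dystroglycan, a cell-surface receptor for the extracellular matrix. Replicate ranks of 2205, 1286 and 708 were found for mRpL39, whose signal was 226.8. For mRpL32 they were 1637, 1336 and 1106 (signal 205.6), with the summit 124 bp from the TSS of qless, an enzyme gene of coenzyme Q synthesis. The replicate ranks of mRpL37 were 2049, 1170 and 1387 (signal 198.5). At mRpL53 the ranks were 1213, 1863 and 1374 (signal 196.8). Its summit lay 83 bp from the TSS of AGO1, the Argonaute protein of microRNA silencing, and 87 bp from a TSS that mRpL53 shares with CG33155, so that these genes cannot be told apart by position.

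All 10 genes named so far had a promoter summit in each of the 3 replicates. Of the other 14, 3 did, namely mRpL16, mRpS16 and mRpL18, with conservative ranks of 1796, 2088 and 2377. Their partners were trr, a histone H3 lysine methyltransferase, cg, a zinc-finger transcription factor, and Taz, the cardiolipin-remodelling enzyme tafazzin. The replicate ranks were 1465, 2479 and 1556 for mRpL16 and 3037, 1857 and 2217 for mRpS16. For mRpL18 they were 3497, 2864 and 1503, with summits 113 bp inside the gene in replicate 1 and 135 and 45 bp upstream in replicates 2 and 3. Its 3 replicate peaks were thus not at 1 position.

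A promoter summit in all 3 replicate lists was found at 13 of 73 genes (17.8%), against 8.85% of all protein-coding genes. Each replicate alone gave 16, 21 and 16 genes, which is 21.9%, 28.8% and 21.9% of the members. The shares of all genes were 16.2% in replicate 1, 15.6% in replicate 2 and 11.7% in replicate 3. The mean over replicates was 24.2% ± 3.95 (SD, n = 3) for the members and 14.5% ± 2.43 for all genes, and the member share was the higher in each of the 3 replicates.

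The remaining 11 genes of the conservative list were not found in all 3 replicates. The replicate lists gave 2 of the 3 for mRpS18B, mRpS7 and mRpS11. They gave 1 of the 3 for mRpL4, mRpS6, mRpL21, mRpS29, mRpL54 and mRpS22. They gave none for mRpL10 and mRpL43. mRpS7, whose bacterial relative organises the head of the small subunit, shared its summit with Cdk1, the mitotic kinase, 240 bp from the Cdk1 TSS, and mRpS11 with Ns1, nucleostemin 1, 9 bp from its TSS. mRpL21 shared its summit with rept, an AAA+ ATPase of chromatin complexes. The rept promoter had a summit in 3 replicates and that of mRpL21 in 1. mRpS29 is the fly member of the DAP3 family of GTP-binding proteins and had a summit 29 bp upstream in the conservative list and 28 bp upstream in replicate 2. The ranks of these 11 genes in the conservative list ran from 1716 at mRpS18B to 4345 at mRpS22.

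Conversely, 2 genes had a promoter summit in a replicate but not in the conservative list. These were mRpS31, at rank 2572 of replicate 2 with the summit 88 bp upstream, and mRpL44, at rank 2155 of replicate 2 with the summit 247 bp upstream. Counting these, the conservative list and the longest list of the authors together, 27 of the 73 genes had a promoter summit in at least 1 list. The share of all genes over the joined lists is not given here, and the shares of single lists are no measure of it.

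The result changed direction with the way a summit was given to a gene. When each summit was assigned only to the nearest TSS, 11 of the 73 genes (15.1%) received one from the conservative list, against 23.9% of all protein-coding genes. The replicates gave 9, 12 and 11 genes. These were 12.3%, 16.4% and 15.1% of the members, beside 19.0%, 18.3% and 14.4% of all genes. By this rule the mean was 14.6% ± 2.09 (SD, n = 3) for the members and 17.2% ± 2.51 for all genes. The members were lower in replicates 1 and 2 and slightly higher in replicate 3.

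Only 10 of the 24 genes with a promoter summit (41.7%) were also its nearest gene, against 83.0% of the 2881 genes with a promoter summit in all. At 17 of the 24 (70.8%) another gene's TSS lay within 250 bp of the summit, against 41.2% of all genes with a promoter summit. The opposite-strand neighbour was the nearer of the pair at 14 of these 17 genes and the mRp gene at 3, mRpL23, mRpL16 and mRpS7. Over the 17 genes the median distance from summit to neighbour was 107.0 bp and from summit to mRp gene 142.0 bp. No 2 mRp genes shared a promoter. The peak lists cannot show which gene of a pair, or both, a summit belongs to.

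**Figure D2:**
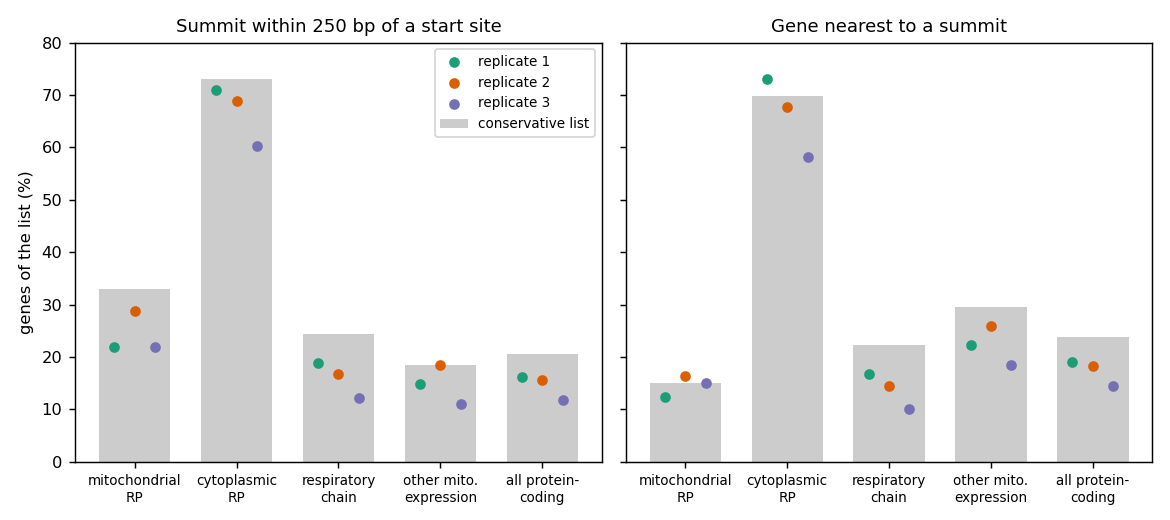
Percent of the genes of each list with a summit within 250 bp of a start site (left) and percent that are the nearest gene to a summit at any distance (right). Bars are the conservative list and points the 3 replicates; the mitochondrial ribosomal protein (RP) genes stand at 32.9% on the left and 15.1% on the right, and all protein-coding genes at 20.6% and 23.9%.

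Paired promoters were common among these genes. A head-to-head neighbour, meaning a gene on the opposite strand whose TSS lies 0 to 500 bp away with both reading outwards, was present at 53 of the 73 genes (72.6%), against 27.3% of all protein-coding genes. The median gap between the start sites was 264.0 bp. Among genes arranged in this way the shares with a promoter summit lay close together, at 20 of 53 members (37.7%) and 37.3% of the 3815 genes of this arrangement in the conservative list. Over the replicates they were 30.2% ± 4.99 (SD, n = 3) for the members and 29.1% ± 2.39 for all genes, a difference smaller than the spread between replicates.

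Among genes without a head-to-head neighbour, 4 of 20 members (20.0%) had a promoter summit, against 14.4% of all such genes. The 4 were mRpL41, mRpL4, mRpS29 and mRpL10. Over the replicates the means were 8.33% ± 2.89 for the members and 9.02% ± 2.53 for all genes, again within the spread. At 18 of the 20 head-to-head members with a promoter summit the summit lay between the start sites. The median gap was 271.5 bp at those 20 and 192.0 bp at the 33 without a promoter summit.

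**Figure D3:**
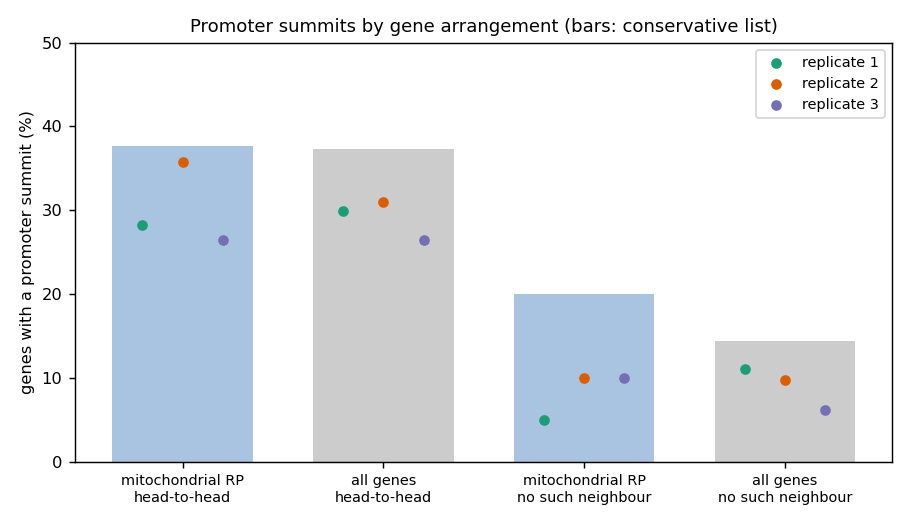
Percent of genes with a promoter summit, split by whether the gene has a head-to-head neighbour within 500 bp, for the mitochondrial ribosomal protein (RP) genes and for all protein-coding genes. Bars are the conservative list (37.7%, 37.3%, 20.0% and 14.4% from left to right) and points are the 3 replicates.

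Large and small subunit genes had similar shares in the conservative list, 15 of 47 (31.9%) and 9 of 26 (34.6%). In all 3 replicates they were found at 10 and 3 genes. Genes whose number is that of a bacterial protein, up to 36 in the large and 21 in the small subunit, had a promoter summit at 16 of 42 (38.1%). Genes with higher numbers had one at 8 of 31 (25.8%). Within the small subunit the counts were 7 of 14 and 2 of 12, and within the large subunit 9 of 28 and 6 of 19. With so few genes these shares are a description only.

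The genes with a promoter summit were unevenly spread over the chromosome arms. On 2R they were 8 of 12, on 2L 6 of 12, on 3L 4 of 17, on 3R 5 of 21 and on X 1 of 11. The shares of all protein-coding genes lay between 18.0% on X and 21.8% on 3L. Of the 13 genes found in all 3 replicates, 5 were on 2R, 3 on 3R, 2 each on 2L and 3L and 1 on X. Head-to-head neighbours were present at 10 of the 12 members on 2R, 9 of the 12 on 2L, 12 of the 17 on 3L, 15 of the 21 on 3R and 7 of the 11 on X.

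Other gene groups gave a scale for these values. Of the 93 cytoplasmic ribosomal protein genes, which encode the ribosome of the cytosol, 68 (73.1%) had a promoter summit in the conservative list and 66.7% ± 5.69 (SD, n = 3) did over the replicates. Of 90 nuclear genes of the respiratory chain and ATP synthase, whose complexes hold the products of mitochondrial translation, 22 (24.4%) did, and 15.9% ± 3.39 over the replicates. By promoter summits, the mitochondrial ribosomal protein genes stood in each replicate between these groups. Under the nearest-gene rule the order turned: in the conservative list the cytoplasmic set stood at 69.9%, the respiratory chain set at 22.2% and the mitochondrial ribosomal protein genes at 15.1%. Over the replicates the respiratory chain set stood at 13.7% ± 3.39 by that rule and the mitochondrial ribosomal protein genes at 14.6% ± 2.09 (SD, n = 3), a difference within the spread. The groups also differed in arrangement: 39.8% of the cytoplasmic and 43.3% of the respiratory chain genes had a head-to-head neighbour, against 72.6% of the members. Among head-to-head genes, 46.2% of the respiratory chain set and 37.7% of the members had a promoter summit in the conservative list. Over the replicates these were 30.8% ± 6.78 and 30.2% ± 4.99. Without such a neighbour the conservative shares were 7.84% and 20.0%, and the replicate means 4.58% ± 3.0 and 8.33% ± 2.89.

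A further list held 31 genes of mitochondrial gene expression whose symbols lack the mRp prefix, among them the small-subunit genes tko and bonsai. Of these, 27 matched the annotation and 5 (18.5%) had a promoter summit in the conservative list. These were PNPase, the mitochondrial polynucleotide phosphorylase, at rank 15, and SLIRP2 and SLIRP1, members of an RNA-binding family, at ranks 50 and 1224, all 3 in every replicate. mTerf5, of the transcription termination factor family, ranked 2536 and was in 2 replicates, and mRF1, a peptide chain release factor, ranked 3789 and was in none. The mitochondrial RNA polymerase gene PolrMT, the DNA-packaging factor gene TFAM, tko and bonsai had no promoter summit in the conservative list.

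The ranked lists hold peaks that did not pass the authors' IDR threshold of 0.01, which is 2 on the −log10 scale. Of the 49 genes without a promoter summit in the conservative list, 35 had a ranked peak within 250 bp, with a median −log10 IDR of 0.324. The same share over all protein-coding genes is not given here, so the count cannot be called particular to the members. Apart from mRpL47, described next, the closest to the threshold in the conservative ranked list was mRpL12, the stalk protein that recruits translation factors, with 1.92; its values were 1.57 and 0.0382 in replicates 2 and 3. In those replicates mRpS21, at 1.95 and 1.98, was closer. No ranked peak within 250 bp was listed in any of the 4 ranked lists at 7 genes, mRpL20, mRpL33, mRpL40, mRpL49, mRpS24, mRpS28 and mRpS34. Members with a promoter summit had values from 2.15 at mRpL43 to 5.0.

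One gene passed the threshold in the ranked lists yet had no peak in the thresholded ones. This was mRpL47, with a −log10 IDR of 4.47 in the conservative ranked list and of 3.63, 4.36 and 4.16 in replicates 1, 2 and 3. Its summits lay 89, 100, 97 and 47 bp upstream in the same order. The conservative list lacked 152 peaks that pass the threshold in its ranked list. The replicate lists lacked 132, 103 and 87. With them put back, a choice made after seeing the data, the members with a promoter summit numbered 25 in the conservative list and 14 in all 3 replicates. Putting them back can also raise the shares of all genes, which are not given here for this choice.

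**Figure D4:**
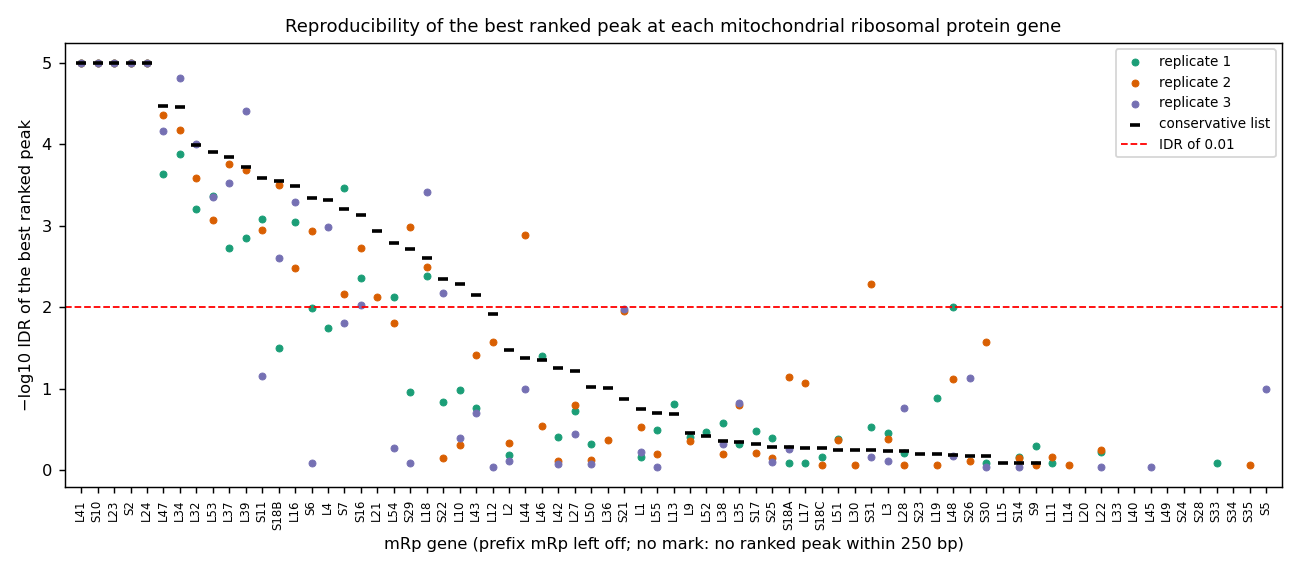
Largest −log10 IDR of any ranked peak within 250 bp of each of the 73 genes, ordered by the conservative ranked list (short horizontal marks) with the 3 replicates as points; the dashed line is the IDR threshold of 0.01. The first 5 genes stand at 5.0 in all 4 lists, and mRpL47 stands above the line in all 4.

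The distance limit left some summits just outside. Within it, mRpL34 (239 bp), mRpL21 and mRpL54 (both 229 bp) were the farthest. Beyond it came mRpS24 (259 bp), mRpL20 (269 bp), mRpL48 (288 bp), mRpS26 (322 bp), mRpL17 (331 bp), mRpL33 (336 bp) and mRpS23 (382 bp). All 7 of these summits were nearer to another gene, and that at mRpS23 had rank 13 (signal 1699), 110 bp from the TSS of CenG1A. A single summit was nearest to an mRp gene but outside its promoter, 831 bp from the TSS of mRpS34 at rank 3728, in a coding exon.

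Short sequence words were searched on both strands in the 250 bases before to 50 after each gene start. The words were the DNA replication-related element (DRE) TATCGATA, the core promoter motif 1 GGTCACAC, the palindromic E-box CAGCTG, the erect wing or NRF1 word GCATGCGC, the GAGA repeat GAGAGA, the homeodomain core TAATTA and the TATA word TATAAA. None of the words contains another. The E-box was found at 40 of 73 members (54.8%) and at 17.7% of all protein-coding genes. The DRE was found at 15 members (20.5%) and at 9.36% of all genes. Examples are shown in the direction of the gene, with the word in capitals. Genes with a promoter summit come first, then genes without one. Among the words shown for genes with a promoter summit, only the DRE of mRpL16 lay within 100 bp of that summit. None of the examples overlaps an annotated exon of a protein-coding gene, and all are from the dm6 reference sequence (RefSeq).
DRE, mRpL39 (chr3L:14999679-14999710, minus strand): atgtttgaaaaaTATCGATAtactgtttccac
DRE, mRpL32 (chr3R:31252833-31252864, plus strand): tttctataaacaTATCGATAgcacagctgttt
DRE, mRpL16 (chrX:1890212-1890243, plus strand): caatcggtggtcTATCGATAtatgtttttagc
E-box, mRpL21 (chr3L:19255067-19255096, minus strand): cgcatgctaacaCAGCTGttcgaaaacgcg
DRE, mRpL19, no promoter summit (chr3R:8674072-8674103, plus strand): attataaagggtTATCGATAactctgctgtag
DRE, mRpL22, no promoter summit (chrX:16783848-16783879, plus strand): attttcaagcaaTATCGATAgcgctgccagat
E-box, mRpL14, no promoter summit (chrX:2344704-2344733, minus strand): gtccgctcttaaCAGCTGcttgctctgtta
E-box, mRpS9, no promoter summit (chr3R:7902710-7902739, minus strand): ggcgccaaaaatCAGCTGaaagcttgtgtg
The E-box was at 12 of 24 members with a promoter summit (50%) and at 28 of 49 without one (57.1%). Its share was 54.7% at members with a head-to-head neighbour and 55.0% at those without, while the shares of all genes were 25.1% and 14.9%. The DRE was at 7 of 24 members with a promoter summit (29.2%), at 8 of 49 without one (16.3%) and at 16.2% of all genes with a promoter summit. At members with a head-to-head neighbour the DRE share was 15.1% (8 of 53), against 17.4% of all such genes. At members without one it was 35.0% (7 of 20), against 6.33%. The higher DRE share of the members was thus confined to those without a head-to-head neighbour. The homeodomain word was at 15 of 73 members (20.5%), the same share as in all genes. It was at 6 of the 24 (25.0%) and at 9 of the 49 (18.4%).

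**Figure D5:**
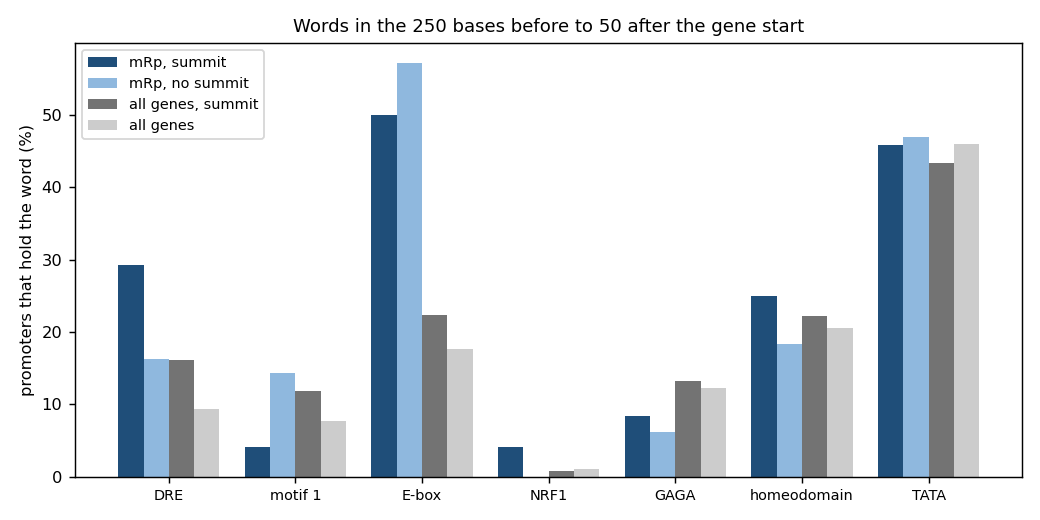
Percent of promoters, 250 bases before to 50 after the gene start, that hold each of 7 short words on either strand, for mitochondrial ribosomal protein (mRp) genes with and without a promoter summit, for all genes with one and for all genes. The E-box stands at 50% and 57.1% in the mRp genes and at 22.4% and 17.7% in the other groups.

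Around the summits themselves, within 100 bp on either side, the E-box, the DRE and the homeodomain word were each found at 5 of 24 members (20.8%). Their shares over all 2543 promoter summits were 14.0%, 9.95% and 13.1%. The DRE cases were mRpL10, mRpL4, mRpS18B, mRpS29 and mRpL16, and the homeodomain cases mRpS2, mRpL24, mRpS7, mRpS18B and mRpL16. The TATA word was at 8 members (33.3%, against 27.1%), motif 1 and the GAGA word at 1 each and the NRF1 word at none. At 9 members none of the 7 words was present, including mRpL41 and mRpS10, the members of highest signal. The share of all promoter summits without any of the words is not given here, so this cannot be called particular to the members. The A+T share of the member summit windows was a median of 70.6% at the 10 members of highest signal, from 44.3% at mRpL53 to 76.1% at mRpL39, and 62.4% at the other 14. It was 66.2% over the 303 promoter summits of the first 500 ranks and 59.2% over all promoter summits. A+T share was measured after the strong members had been seen to hold few of the words, and its part in the peak signal was not tested.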

How the data were processed

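Anti-GFP ChIP-seq of Dbx-eGFP embryos was analysed from peak lists only; read depth is unknown. The authors mapped to dm6, per the labels, from chromatin fragments of 200 to 800 bp; aligner and peak caller: not given in the sources used here. The deposited signal per peak was used to rank peaks within a list. The deposited −log10 IDR was used in the ranked lists, and a value of 2 or more counted as passing. The lists of each replicate are per sample, and the conservative and longest lists join replicates. In the ranked list of the conservative peaks, 8 columns of values of single samples were not used. The control experiment was not analysed here.

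Start sites were those of protein-coding transcripts in Ensembl release 115. The deposited peaks and the annotation end within the chromosomes of the RefSeq sequence used, and 99.8% of annotated start codons read ATG in it. A promoter summit lies within 250 bp of any TSS of a gene, so a summit can count for several genes. Gene assignment was tested on simulated summits. Full values were given for members by signal, for shared promoters and for summits outside promoters or in discordant lists. Where a gene had several promoter peaks, the one of highest signal was used. Members, comparison lists and rules were chosen with earlier results of these data known. With 1 group there is no test between conditions; the alternatives were other lists, distances, start sites and windows, and leaving out each replicate. Work was done with Python 3.11.15, numpy 2.4.6 and pandas 2.3.3. The neighbour of 1 member is not reported here.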

Additional observations from a re-analysis of the deposited data

How the results depend on the processing

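The member share with a promoter summit was above that of all genes under each list and distance tried: 24 genes (32.9% against 24.0%) in the longest list, 5 (6.85% against 3.11%) among the 500 conservative peaks of highest signal, 14 (19.2% against 9.16%) among conservative peaks overlapping a peak in all 3 replicate lists, 11 (15.1% against 12.6%) at 100 bp, 31 (42.5% against 24.0%) at 500 bp and 34 (46.6% against 26.9%) at 1000 bp. None of these comparisons was matched for gene arrangement. With a head-to-head neighbour the conservative shares were 37.7% and 37.3%, and the replicate means 30.2% and 29.1%. Without one they were 20.0% and 14.4%, and 8.33% and 9.02%. By the nearest-gene rule the member share in the conservative list was the lower, 15.1% against 23.9%. The member counts themselves depended on the list and distance chosen. The 500 peaks of highest signal left 2 nearest members, 4 members with a shared summit and a median signal percentile of 99.3. The peaks found in all 3 replicates left 3 nearest members and a percentile of 75.8, and the longest list gave 69.4, against 60.8 as reported. At 100 bp the median position was -48.0 bp, 4 members shared a summit, the replicate mean was 9.13% and 3 members were in all 3 replicates. At 500 and 1000 bp the shared summits numbered 27 and 33 and the replicate means were 32.0% and 32.9%, and at 1000 bp the median position was -148.0 bp. Asking for overlap with the other replicates while leaving out 1 gave 14 to 16 members, with 14 when replicate 2 was left out. The same omissions gave replicate means of 21.9% to 25.3% and 13 to 15 members in every remaining replicate.

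Word shares moved with the window. At 50 bp around the summit they were 12.5% (DRE), 8.33% (E-box), 0.0% (GAGA), 16.7% (homeodomain) and 20.8% (TATA), and in the promoter window 29.2% (DRE), 50% (E-box), 4.17% (NRF1), 8.33% (GAGA), 25.0% (homeodomain) and 45.8% (TATA). With head-to-head gaps up to 300 or 1000 bp, tried after seeing the data, 10 and 1 members without such a neighbour had a promoter summit (25.0% and 6.67%, against 16.2% and 13.4% of all such genes), and for members with one the shares were 42.4% and 39.7% against 40.1% and 33.4%. The cause of these shifts was not tested beyond what each choice removes or adds. No paired analysis was possible because the study has 1 group. Peak lists without read counts give no precision for a single gene, and a gene without a promoter summit may hold a peak under the threshold.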
